A study of Mus musculus with 6 samples.

Results

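A gene can give rise to several messenger RNAs, and the ones examined here are annotated protein-coding transcripts that the study's transcript table does not mark as the canonical, or representative, transcript of their gene. They were chosen as the rows of the table of transcripts differing between diets that carry the biotype protein coding, a canonical mark of 0 and an annotated rather than assembled identifier, leaving out 17 gene symbols. This gave 178 transcripts of 173 genes, out of 831 transcripts in the table. Alternative promoters, exons, splice sites and polyadenylation sites make such transcripts, and they may code for the same protein with other untranslated ends, or for a protein with a stretch added or missing. The testis is known as a tissue in which genes use many alternative transcripts, in part because germ cells have promoters and splicing regulators of their own.

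The tissue was whole testis of C57BL/6 mice, an inbred laboratory strain, fed for 8 weeks either normal food (libraries 7, 8 and 9) or high-fat food (libraries 10, 11 and 12) to make them obese, and the title of the study names thermogenesis pathways. No genetic change and no age is given in the labels, and the labels do not say that each library came from its own mouse, so a p-value here speaks of the spread among libraries. The table holds estimated read counts per transcript, which StringTie, named in the submitters' processing notes, divides among the transcripts of a gene where a read fits more than 1 of them. The counts of all listed transcripts add up to 362790 in the smallest library and 490603 in the largest, a fraction of the full depth. The number of transcripts the authors tested, 95751, was worked back from their p-values, the ranks of these and their adjusted p-values. The table lists only transcripts that the authors called: 831 of 95751 tested, or 0.868%. Each member was therefore listed for the very contrast described here, and its difference between diets is a description. None of 53 defining marker genes of testis, fat, epididymis and blood cell types has a listed transcript, so the tissue label could not be checked against their levels; Hsd3b6, a Leydig cell gene that is not among the 53, is listed and is described with the lipid genes. In whole tissue, fewer cells of a type and less RNA per cell cannot be told apart.

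The mark non-canonical covers transcripts of several kinds. In GENCODE M21, the mouse annotation on GRCm38, 176 of the 178 were found, and 57 of these are themselves tagged as a principal isoform by APPRIS, an annotation of the main protein forms of each gene. Each of the 176 was set beside 1 other coding transcript of its gene, the principal one where there was another. Among 141 with a complete coding model, 48 carried exactly the coding sequence of that comparison transcript, 81 were shorter, 9 were longer and 3 had the same length with other letters. The difference in coding length was -147 bases at the median of the shorter ones and 39 bases at the median of the longer ones. In all 90 it was a multiple of 3. Complete coding sequences are whole numbers of codons, so this follows from their completeness and is no result. The other 35 are annotated with an open start or end of the coding sequence, so their proteins are not known in full. Among those named below, they include Cop1, Cpsf7, Elk4, Immt, Lyar, Rad21, Sf3a2 and Stard6. What is said of a gene's protein need not hold for such a member.

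A few of the sequences in which members differ from the comparison transcript are printed here. The counts are estimates for whole transcript models and do not measure these stretches by themselves. The deposited start and end equal those of the GENCODE model for 53 of the 176 members and differ for 123. The printed sequences are GENCODE M21 transcript sequences on GRCm38, written 5′ to 3′ along the transcript. In the first 5 lines, capitals mark an exon and the 10 lower-case bases on either side are its neighbours in the spliced RNA. Catsperg1 has this exon of 159 bases, at chr7:29195413-29195571 on the minus strand, in the member and not in the comparison transcript. The other 4 exons are absent from the member and present in the comparison transcript: 144 bases of Erbin at chr13:103830188-103830331 (minus strand), 93 bases of Lgals9 at chr11:78969714-78969806 (minus strand), 75 bases of Ppfia1 at chr7:144514872-144514946 (minus strand) and 69 bases of Suz12 at chr11:79999057-79999125 (plus strand). These 5 were picked among exons with a length of whole codons, and they hold 53, 48, 31, 25 and 23 codons.
Catsperg1 exon: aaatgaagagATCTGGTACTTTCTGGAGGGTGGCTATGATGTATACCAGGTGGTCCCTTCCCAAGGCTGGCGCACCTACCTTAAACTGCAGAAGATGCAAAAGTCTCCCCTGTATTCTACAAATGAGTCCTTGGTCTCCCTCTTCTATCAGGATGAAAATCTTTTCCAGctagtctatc
Erbin exon: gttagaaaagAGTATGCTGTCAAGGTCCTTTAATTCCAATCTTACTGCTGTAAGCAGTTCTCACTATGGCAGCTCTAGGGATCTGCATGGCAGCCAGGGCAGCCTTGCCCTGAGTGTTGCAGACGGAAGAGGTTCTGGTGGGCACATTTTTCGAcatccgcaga
Lgals9 exon: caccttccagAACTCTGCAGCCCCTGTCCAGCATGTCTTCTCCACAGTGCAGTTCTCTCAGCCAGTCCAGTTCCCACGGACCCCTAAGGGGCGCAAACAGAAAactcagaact
Ppfia1 exon: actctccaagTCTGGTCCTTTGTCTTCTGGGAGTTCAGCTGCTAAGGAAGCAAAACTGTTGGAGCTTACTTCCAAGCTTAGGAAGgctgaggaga
Suz12 exon: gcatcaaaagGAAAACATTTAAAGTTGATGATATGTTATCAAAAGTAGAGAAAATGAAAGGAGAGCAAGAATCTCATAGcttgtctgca

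The next 5 lines show junctions of the member's GENCODE model that no other annotated transcript of its gene has. A read crossing such a junction is particular to that model among the annotated transcripts. The 20 lower-case bases end the upstream exon and the 20 capitals begin the downstream exon. The introns removed lie at chr11:79995810-80007512 (plus) in Suz12, chr11:78968034-78971316 (minus) in Lgals9, chr19:26681940-26683808 (plus) in Smarca2, chr6:121185851-121190100 (plus) in Pex26 and chr10:21307780-21309742 (plus) in Hbs1l. In Suz12 and Lgals9 the junction joins the exons on either side of the exon printed above. Of the 176 members, 100 have such a junction of their own, and 76 have none. Exon sequence found in no other transcript was not looked for, so these 76 may still differ from the other transcripts there.
Suz12 junction: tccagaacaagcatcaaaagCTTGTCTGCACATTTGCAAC
Lgals9 junction: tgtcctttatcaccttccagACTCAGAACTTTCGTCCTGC
Smarca2 junction: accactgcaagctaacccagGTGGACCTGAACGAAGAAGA
Pex26 junction: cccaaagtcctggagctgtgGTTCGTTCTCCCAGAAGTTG
Hbs1l junction: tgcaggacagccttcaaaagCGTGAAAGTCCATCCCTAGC

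Of the members, 98 were higher on high-fat food and 80 lower in the authors' deposited table, or 55.1% higher beside 55.4% of all 831 listed. Over every transcript the authors tested, 0.48% were listed as higher and 0.387% as lower. The fit of edgeR's quasi-likelihood test, run on the whole table with the authors' scaling, could be made for 137 members, and 77 were called higher and 60 lower, with Benjamini-Hochberg adjusted p from 0.00183 to 0.0433. In the same fit 99.7% of the listed transcripts tested were called, 55.7% higher and 44.0% lower, so the members' count follows from how the table was made. This adjustment, and every adjusted p by edgeR given for a member, covers the 680 listed transcripts tested; adjusted over all 95751 that the authors tested, 0 members passed, although all 137 had an unadjusted p under 0.05 by edgeR. The 41 members left out fell below edgeR's filter on low counts, and only their values are given. The values of the diets did not overlap for 169 members (94.9%), beside 91.3% of all listed transcripts: 95 were higher, beside 50.9% of all listed, and 74 lower, beside 40.4%. They overlapped for 9: Arrb1, Cd36, Enthd1, Fam227a, Hsd3b6, Hspbp1, Rapgef1, Rgs22 and Zscan18.

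Most members were rare transcripts with large differences. Their mean normalized count, the deposited count divided by the library's size factor, had a median of 56.4 over the 6 libraries, beside 133 for all listed. The median size of the authors' log2 fold change was 5.67, beside 5.30 for all listed and 3.09 for the 89 canonical coding transcripts in the table. A count of 0 in every normal-food library was found for 36 members and in every high-fat library for 20, together 31.5% of members beside 30.1% of all listed. For 39 members (21.9%, beside 24.3% of all listed) the libraries of the higher diet differed by more than 10 times among themselves. Only 4 members had an absolute log2 fold change under 1 in the authors' deposited table.

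The members with the least even libraries include several that overlap between diets. Rapgef1, an exchange factor for the small GTPase Rap1, had 0, 2 and 10 counts on normal food and 1, 196 and 3842 on high-fat food, nearly all in library 12. Zscan18, a zinc finger protein, had 1, 3 and 0 and then 383, 2 and 125 counts. Arrb1, which encodes a beta-arrestin that quiets G protein-coupled receptors, had 158, 0 and 798 counts on normal and 0, 1 and 1 on high-fat food. Library 8 was the low one in Arrb1, and the same was seen in Enthd1 (340, 6 and 451), Rgs22 (251, 2 and 355), Hspbp1 (159, 1 and 105) and Fam227a (56, 1 and 174). Of the 39 uneven members 20 were lower on high-fat food, with library 7 the lowest normal one in 6, library 8 in 9 and library 9 in 5. The other 19 were higher, with library 10 the lowest high-fat one in 10, library 11 in 2 and library 12 in 7.

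**Figure D1:**
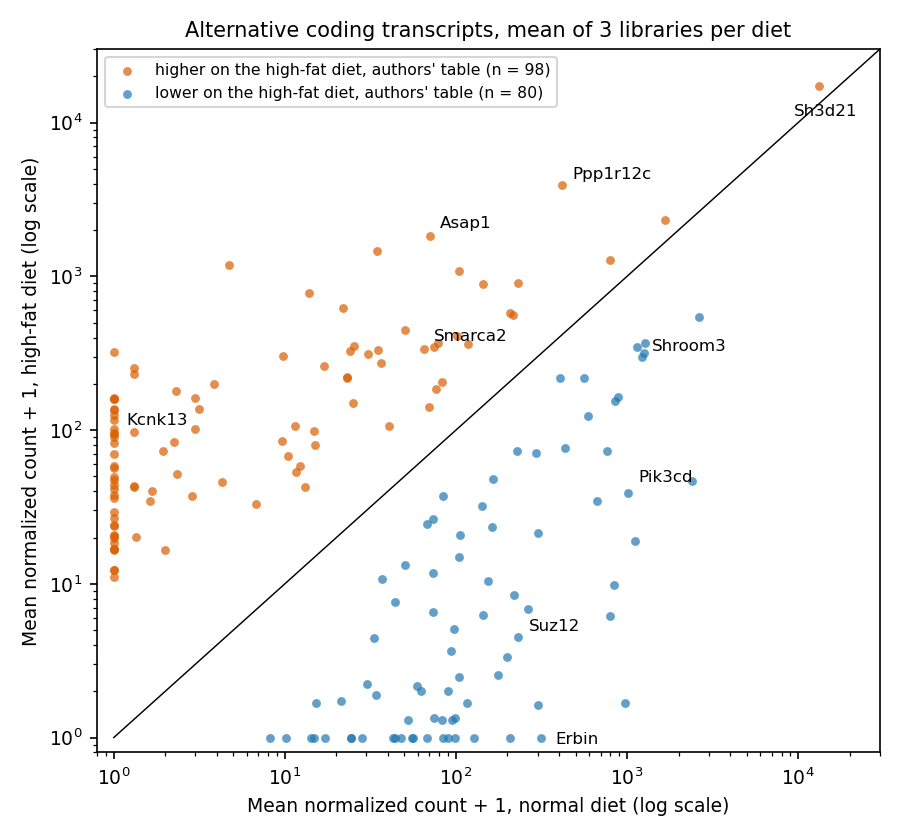
Mean normalized count plus 1 on normal food (horizontal, log scale) and on high-fat food (vertical, log scale) for the 178 alternative coding transcripts, each point the mean of 3 libraries and the line marking equal values. Orange points (98) were higher and blue points (80) lower in the authors' deposited table; points on the left edge and the lower edge are the 36 and 20 transcripts at 0 in every library of a diet.

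The 10 most abundant members include the 3 smallest rises described here. Sh3d21, which encodes a protein with SH3 domains, had by far the highest counts: 12763, 13756 and 14205 on normal food and 15908, 16310 and 20177 on high-fat food. The high-fat libraries were all above the normal ones, with normalized means of 13253 ± 278 and 17189 ± 750.4 (SD, n = 3) and an edgeR log2 fold change of 0.38 ± 0.09 (SE, adjusted p = 0.00753). Hnrnph1, an RNA-binding regulator of splicing, had 770, 881 and 775 counts on normal and 1076, 1348 and 1464 on high-fat food, 0.69 ± 0.24 on the log2 scale by edgeR (adjusted p = 0.03). The 1810055G02Rik transcript had 1575, 1789 and 1772 on normal and 2179, 2356 and 2495 on high-fat food, with a log2 fold change of 0.47 ± 0.18 (adjusted p = 0.0433, edgeR). No library of one diet reached into the other for any of the 3, but their calls depend on the scaling. With TMM scaling, which shifts the log2 fold changes by -0.49 at the median, the values were -0.12, 0.19 and -0.02, and none was called (adjusted p = 0.27, 0.469 and 0.909, edgeR). Leaving out 1 library also ended the calls of Hnrnph1 and 1810055G02Rik whichever library it was (adjusted p from 0.0598 to 0.189, edgeR), and that of Sh3d21 without any library but library 11 (adjusted p from 0.066 to 0.11).

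Of the other abundant members described here, 2 rose and 4 fell. Ppp1r12c encodes a regulatory subunit of myosin phosphatase, and its member had 120, 866 and 324 counts on normal and 4853, 4585 and 2139 on high-fat food. The lowest high-fat library was above the highest normal one, with an edgeR log2 fold change of 3.24 ± 0.81 (adjusted p = 0.00941) that became 4.21 without library 8. The transcript of Asap1, which encodes an Arf GTPase-activating protein, had 57, 33 and 125 counts on normal and 2259, 572 and 2717 on high-fat food. All high-fat libraries were above the normal ones, and it rose by 4.71 ± 0.83 on the log2 scale by edgeR (adjusted p = 0.00455), or by 5.30 without library 9. Both members lack coding bases of the comparison transcript, 237 in Ppp1r12c, whose model is incomplete, and 105 in Asap1.

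Rest encodes a repressor of neuronal genes, and its member, at chr5:77266196-77286432 on the plus strand, had 1516, 857 and 1526 counts on normal and 425, 330 and 352 on high-fat food. Its diets were far apart and the high-fat libraries close together, with a log2 fold change of -1.79 ± 0.39 (adjusted p = 0.00689, edgeR). This transcript has the coding sequence of the comparison transcript, starts 705 bases away from it and has a first exon that does not overlap it.

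Shroom3, an actin-binding protein of cell shape, and Fam229b fell by about as much. The Shroom3 member, chr5:92897993-92965881 on the plus strand, begins 214558 bases from the start of the comparison transcript and lacks 525 of its coding bases. It had 1424, 1098 and 1193 counts on normal and 326, 233 and 342 on high-fat food, and the normal libraries were all far above the high-fat ones. Its log2 fold change was -2.03 ± 0.34 by edgeR (adjusted p = 0.00392). Fam229b had 607, 1522 and 1801 counts on normal and 309, 230 and 434 on high-fat food, without overlap, and a log2 fold change of -1.98 ± 0.47 by edgeR (adjusted p = 0.00812), with the same coding sequence as the comparison transcript.

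Cnot1 encodes the scaffold of the CCR4-NOT deadenylase complex, which shortens messenger RNA tails, and its member was the least even of the abundant ones. It had 5483, 628 and 869 counts on normal and 90, 12 and 29 on high-fat food. Library 7 alone held most of the normal-food counts, although libraries 8 and 9 were also above every high-fat library. The edgeR log2 fold change of -5.73 ± 1.41 (adjusted p = 0.00899) became -3.94 without library 7 and -7.00 without library 10.

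The largest rises were of transcripts listed at 0 or near 0 on normal food. Rab40c, a small GTPase that acts with a ubiquitin ligase, had 334, 15 and 666 counts on high-fat food and 0 in every normal library. Its high-fat libraries differed by over 10 times, and it was at least 109.8-fold higher against a floor of 3 counts per library (adjusted p = 0.0118, edgeR). Without library 12 that bound was 65.2-fold and the call held (adjusted p = 0.0425, edgeR). Arid5a, an RNA- and DNA-binding protein with an ARID domain, had 40, 241 and 220 counts on high-fat food and 0 on normal food, at least 54.3-fold higher (adjusted p = 0.0054, edgeR). Ipp, an actin-binding kelch protein, had 55, 258 and 179 against 0, at least 54.0-fold higher (adjusted p = 0.00446, edgeR). Without library 11, the highest for both, the bounds were 40.4-fold for Arid5a and 37.1-fold for Ipp.

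The most even of these rises was that of Kcnk13, a background potassium channel. Its member had 99, 113 and 138 counts on high-fat food and 0 in all 3 normal libraries, at least 39.0-fold higher, with edgeR's adjusted p at 0.00195. Tpm1, which encodes tropomyosin of actin filaments, had 76, 99 and 218 counts against 0, at least 42.5-fold higher (adjusted p = 0.00319, edgeR). Its start lies 5604 bases from that of the comparison transcript, it lacks 240 of its coding bases, and it has 132 that the comparison transcript lacks. Dpf1, a subunit of the neuronal BAF chromatin remodelling complex, had 309, 310 and 121 counts on high-fat food and a count of 1 in library 9 on normal food, with 0 in libraries 7 and 8. The ratio of its totals was 747 with a 95% exact binomial interval from 134 to 29559, which covers counting error only (adjusted p = 0.00198, edgeR).

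The other large rises were less even. Lgals9, the sugar-binding galectin-9, had 11, 158 and 150 counts on high-fat food and 0 on normal food, at least 34.3-fold higher (adjusted p = 0.00961, edgeR). The member is the form joined over the exon printed above, so its counts are estimates for galectin RNA without those 31 codons. Taf6l, a subunit of the SAGA-type histone acetylase complex, had 11, 269 and 146 counts against 0, and Inpp4a, a lipid phosphatase, had 275, 67 and 37 against 0. Both were called by edgeR (adjusted p = 0.0115 and 0.00861), at least 46.5-fold and 45.7-fold higher. Without the highest library the bounds were 24.5-fold for Lgals9 and 23.9-fold for Taf6l (library 11) and 17.0-fold for Inpp4a (library 10).

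The largest falls ended at or near 0 on high-fat food. Erbin, a scaffold protein of cell junctions that binds the receptor ERBB2, had 585, 147 and 191 counts on normal food and 0 in every high-fat library, at least 105-fold lower (adjusted p = 0.00482, edgeR). The Erbin member lacks the 144-base exon printed above and 222 coding bases in all. Each of its junctions is also in another of the gene's 7 annotated transcripts, so skipping of the exon itself was not measured. Arhgef33, a guanine nucleotide exchange factor by its sequence family, had 45, 401 and 204 against 0, and Ly6e, a GPI-anchored surface protein induced by interferon, had 181, 105 and 96 against 0. They were at least 69.1-fold and 42.6-fold lower (adjusted p = 0.00631 and 0.0031, edgeR), and both have the coding sequence of their comparison transcript. Without the highest library the bounds were 53.0-fold for Erbin (library 7) and 39.6-fold for Arhgef33 (library 8).

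Suz12 encodes a core subunit of Polycomb repressive complex 2, which methylates histone H3 and keeps genes silent. Its member, the form without the 69-base exon, had 58, 370 and 299 counts on normal food and 0, 7 and 4 on high-fat food. Every normal library was above every high-fat one, with means of 229.8 ± 151 and 3.51 ± 3.50 and a log2 fold change of -5.97 ± 1.20 by edgeR (adjusted p = 0.00603), or -6.87 without library 11. Ppfia1, a liprin of focal adhesions and synapses, had 1012, 372 and 1039 counts on normal and 14, 0 and 0 on high-fat food for the form without the 75-base exon. Its log2 fold change of -7.28 ± 1.84 (adjusted p = 0.00967, edgeR) rests on the 14 counts of library 10. It was -6.69 and -6.68 without library 11 and library 12. Without library 10 every high-fat count left is 0, so the fitted value of -12.70 is no measure of size.

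Pex26, the membrane anchor of the peroxisomal import machinery, had 14, 181 and 171 counts on normal and 0, 2 and 0 on high-fat food. Its member uses the junction printed above, lacks 417 coding bases and was lower by a ratio of totals of 181, with a 95% interval from 49.8 to 1502 for counting error only (adjusted p = 0.00624, edgeR). Hbs1l, a factor that rescues stalled ribosomes, had 34, 143 and 147 counts on normal and 4, 0 and 0 on high-fat food. This short form has 420 coding bases and lacks 1628 of the 2046 in the comparison transcript. Its log2 fold change of -6.11 ± 1.28 (adjusted p = 0.00647, edgeR) was -5.50 without library 12. Without library 10 every high-fat count left is 0, so the fitted value of -9.74 is no measure of size. The Gpbp1 member had 12, 588 and 84 counts on normal and 6, 8 and 9 on high-fat food, so library 8 carried most of it. Its log2 fold change of -4.83 ± 1.44 (adjusted p = 0.0165, edgeR) became -2.57 without library 8, and the call was lost without library 10, 11 or 12 (adjusted p = 0.0622, 0.0566 and 0.0613) and with limma-voom (-3.44, adjusted p = 0.0596).

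**Figure D2:**
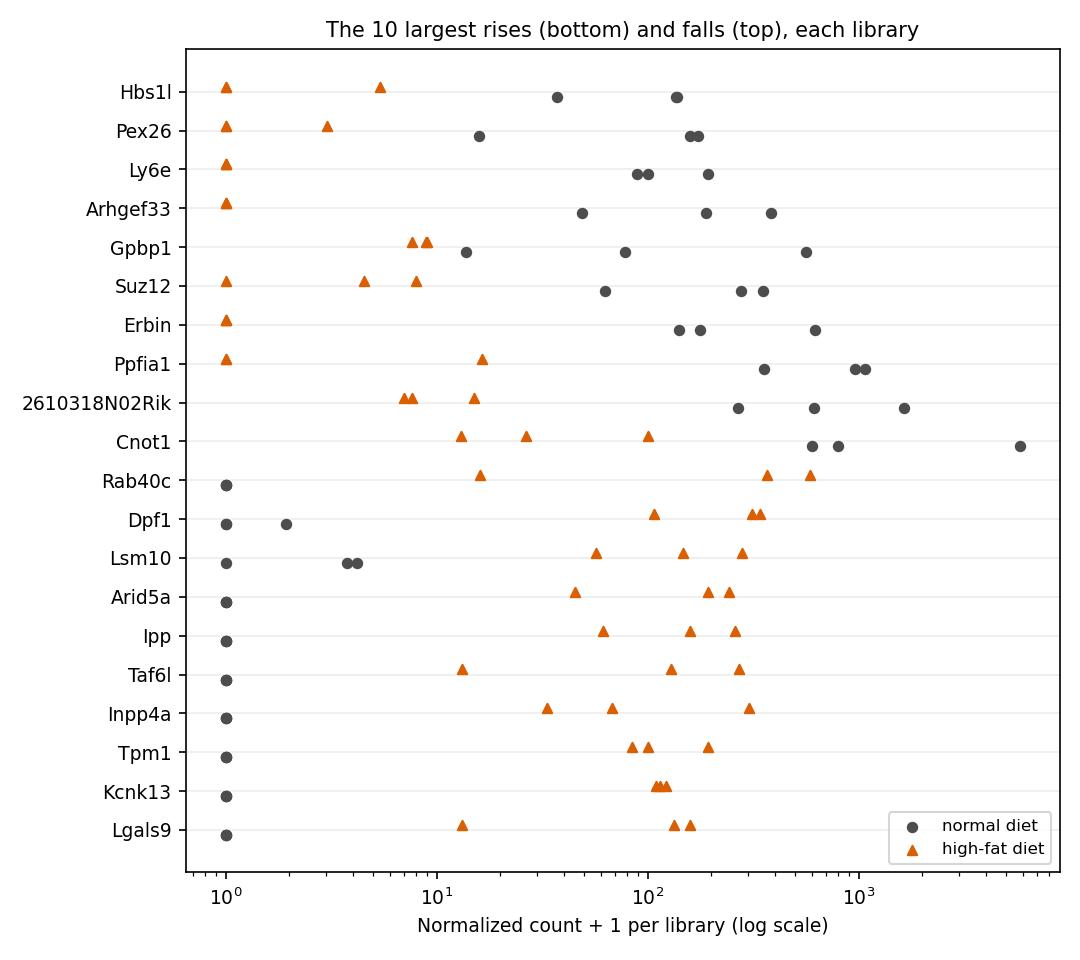
Normalized count plus 1 (log scale) in each of the 3 normal-food libraries (grey circles) and 3 high-fat libraries (orange triangles) for the 10 largest rises (lower rows) and the 10 largest falls (upper rows) among members called by edgeR with a mean of at least 50 and no overlap. Circles at 1 are libraries with 0 counts; Kcnk13 is the tightest rise, and Rab40c spreads over more than 10 times on high-fat food.

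Among regulators of RNA and chromatin, members moved both ways. Of 7 members on a list of splicing and RNA processing genes, 6 were tested by edgeR, with 4 higher and 2 lower, beside the 99.7% of listed transcripts called. That share, with 55.7% higher and 44.0% lower, stands beside the count of each list that follows, so being called says nothing particular about a list. Sf3a2, a subunit of the splicing factor SF3a, had a count of 1 in each normal library and 19, 11 and 17 on high-fat food, and Cpsf7, a cleavage factor of 3′ end formation, had 13, 38 and 41 and then 1, 0 and 3. Both were called by edgeR (adjusted p = 0.00195 and 0.00535). The Celf4 member was not tested and had 0 counts on normal food and 7, 14 and 40 on high-fat food.

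Of 7 members on the chromatin list, 6 were tested, with 4 higher (Arid5a, Dpf1, Epc1 and Smarca2) and 2 lower (Brpf1 and Suz12). Smarca2, the BRM helicase of the SWI/SNF remodelling complex, had 42, 85 and 72 counts on normal and 464, 220 and 317 on high-fat food. All high-fat libraries were above the normal ones, and the form with the junction printed above, which lacks 174 coding bases, rose, with means of 64.0 ± 18.2 and 337 ± 154 and a log2 fold change of 2.39 ± 0.49 (adjusted p = 0.00627, edgeR). Epc1, a subunit of the NuA4 histone acetylase complex, had 115, 80 and 110 and then 469, 400 and 344, a log2 fold change of 2.02 ± 0.40 (adjusted p = 0.00563, edgeR). Brpf1, a bromodomain scaffold of another acetylase complex, had 1148, 729 and 93 counts on normal and 37, 35 and 29 on high-fat food, without overlap; its log2 fold change of -4.30 ± 1.01 (adjusted p = 0.0081, edgeR) was -3.53 without library 7, and the call was lost with limma-voom (-3.58, adjusted p = 0.069). The Hdac4 member was not tested, with 238, 10 and 183 counts on normal and 4, 7 and 5 on high-fat food.

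Of 5 zinc finger members, 3 were tested, with Zfp184 and Zscan21 higher and Zfp655 lower. Of 6 members on a list of other transcription factors and cofactors, 5 were tested, with Gtf2i, Polr1e and Taf6l higher and Med7 and Tcf4 lower. Gtf2i, the transcription factor TFII-I, had 18, 5 and 16 counts on normal and 1325, 755 and 137 on high-fat food. All high-fat libraries were above the normal ones, and the log2 fold change was 5.91 ± 1.16 (adjusted p = 0.00563, edgeR), or 5.08 without library 10. Tcf4, a basic helix-loop-helix factor, had 15, 156 and 92 counts on normal food and 0 on high-fat food, at least 27.9-fold lower (adjusted p = 0.0081, edgeR), or 16.9-fold without library 8.

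Members of genes for sperm and cilia were few. Catsperg1 encodes a subunit of CatSper, the calcium channel of the sperm tail that is needed for hyperactivated swimming. The Catsperg1 member, which has the 159-base exon, had 44, 37 and 22 counts on normal and 604, 91 and 271 on high-fat food. Each of its junctions is also in another of the gene's 14 annotated transcripts, so use of the exon itself was not measured. The high-fat libraries were all above the normal ones although library 10 was far above the other two, and the log2 fold change of 3.28 ± 0.85 (adjusted p = 0.0102, edgeR) was 2.27 without library 10. Iqch, an IQ-motif protein expressed in testis, had 23, 9 and 10 and then 82, 69 and 90 counts, a log2 fold change of 2.49 ± 0.52 (adjusted p = 0.00631, edgeR), or 3.14 without library 7. Klhl10, an adaptor of a cullin ubiquitin ligase needed for male fertility in mice, had 207, 261 and 226 counts on normal and 72, 74 and 70 on high-fat food. Its libraries hardly differed within a diet, with means of 226 ± 20.6 and 71.6 ± 9.16 (SD, n = 3) and a log2 fold change of -1.65 ± 0.31 (adjusted p = 0.00508, edgeR), and this short form has 810 coding bases, 126 of them its own, and lacks 1140 of the 1824 in the comparison transcript. Akap10, an anchor of protein kinase A, had 54, 153 and 119 and then 11, 24 and 26 counts, a log2 fold change of -2.40 ± 0.51 (adjusted p = 0.00671, edgeR). Of the 6 members on the list of centrosome, cilium and sperm tail genes, 4 were tested, 3 higher and 1 lower.

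Of 6 members on the ubiquitin list, all tested by edgeR, 5 fell, among them Asb8, Cop1, Klhl10 and Rnf152, and Ube2f rose, beside 44.0% lower and 55.7% higher among all listed transcripts tested. Of all 18 annotated transcripts in the table on that list, these members included, 8 were higher in the authors' deposited table. Cop1, an E3 ligase that targets transcription factors, had 34, 114 and 145 counts on normal and 2, 4 and 2 on high-fat food (adjusted p = 0.00302, edgeR). Ube2f, a conjugating enzyme for NEDD8, had 12, 27 and 10 and then 338, 42 and 411 counts, a log2 fold change of 4.01 ± 0.97 (adjusted p = 0.00861, edgeR). Library 11 was the lowest high-fat library and was still above every normal library.

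All 5 members on the list of transporters and channels were higher in the authors' deposited table, beside 55.4% of all listed. The 4 tested were called higher by edgeR, beside 55.7% of all listed transcripts tested. The list of all annotated transcripts in the table has 14 such entries, of which 12 were higher. Slc11a2, the divalent metal transporter DMT1, had 244, 197 and 186 counts on normal and 623, 557 and 565 on high-fat food, a log2 fold change of 1.49 ± 0.35 (adjusted p = 0.00825, edgeR). Slc25a45, a carrier of the mitochondrial family, had 34, 45 and 43 and then 101, 104 and 117, a log2 fold change of 1.42 ± 0.29 (adjusted p = 0.00627, edgeR). Both were even within each diet, and neither overlapped between diets. Kcnc2, a voltage-gated potassium channel, had 0, 1 and 0 and then 47, 45 and 32 counts (adjusted p = 0.00237, edgeR). Slc43a1, an amino acid transporter, was not tested and had 0 counts on normal food and 14, 7 and 29 on high-fat food.

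The 3 members on the lipid list were called lower by edgeR, beside 44.0% of all listed transcripts tested; the table has 6 annotated transcripts on this list, and 0 were higher in the authors' deposited table. Pex26 is described above. Stard6, a START-domain protein of germ cells that binds sterols, had 316, 264 and 317 counts on normal and 48, 72 and 96 on high-fat food, a log2 fold change of -2.07 ± 0.36 (adjusted p = 0.00433, edgeR). The Stard6 model is incomplete, with 163 coding bases beside 699 in the comparison transcript. Hsd3b6, a steroid-forming enzyme of Leydig cells and the only member on a wider list of somatic cell genes, had 1590, 1722 and 8 counts on normal and 15, 33 and 5 on high-fat food. Its diets overlapped through library 9, its counts can be shared with near-identical genes of the family, and its edgeR call (log2 fold change -5.94 ± 1.92, adjusted p = 0.0223) was lost without library 7, 8, 10, 11 or 12 (adjusted p from 0.0521 to 0.0788) and with limma-voom (-4.20, adjusted p = 0.24).

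Of the kinases and phosphatases, Ppp1r12c, Inpp4a and Tgfbr1 were higher and Pik3cd lower, all 4 called by edgeR. Tgfbr1, the type I receptor for TGF-beta, had 104, 68 and 49 counts on normal and 465, 221 and 343 on high-fat food, a log2 fold change of 2.23 ± 0.54 (adjusted p = 0.00864, edgeR); the member lacks 12 coding bases. On the GTPase list 5 of 8 were tested, with 2 higher and 3 lower, and both members on the vesicle traffic list were called higher by edgeR. Cog8, a subunit of the Golgi tethering complex COG, had 12, 25 and 40 counts and then 58, 607 and 436, with library 10 the lowest high-fat library; its log2 fold change of 3.84 ± 0.94 (adjusted p = 0.00903, edgeR) was 3.18 without library 11. Trappc8, of the tethering complex TRAPP, had 11, 14 and 12 and then 40, 36 and 51 counts (log2 fold change 1.78 ± 0.29, edgeR adjusted p = 0.00389).

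On the cytoskeleton list 5 of 9 members were tested, with 3 higher (Epb41l1, Pdlim5 and Tpm1) and 2 lower (Myo7a and Shroom3). Epb41l1, a membrane skeleton protein, had 0, 9 and 0 counts and then 152, 95 and 382. Its log2 fold change of 6.05 ± 1.43 (adjusted p = 0.00819, edgeR) was 5.45 without library 12. Without library 8 every normal-food count left is 0, so the fitted value of 10.66 is no measure of size. On the immune list 2 of 6 were tested. Cd151, a tetraspanin, had 22, 35 and 13 counts on normal and 484, 85 and 403 on high-fat food and was higher (log2 fold change 3.82 ± 0.83, edgeR adjusted p = 0.00692), and Ly6e was lower. Cd36, a fatty acid receptor that overlapped between diets and was not tested, had 0, 1 and 0 counts on normal and 68, 213 and 1 on high-fat food. On the thermogenesis list the 2 members were Smarca2 and Dpf1, both higher. Rad21 of the cohesin ring was the only member on the DNA repair list (41, 42 and 26 and then 7, 12 and 11 counts, log2 fold change -1.86 ± 0.38, edgeR adjusted p = 0.00625). On the mitochondrial list, Immt, a protein of the inner membrane folds, had 83, 242 and 151 and then 8, 16 and 4 counts and was lower (log2 fold change -4.00 ± 0.71, edgeR adjusted p = 0.00455, -4.62 without library 11), and Slc25a45 was higher. No member was on the lists for translation, meiosis and germ cell RNA, or matrix and adhesion.

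**Figure D3:**
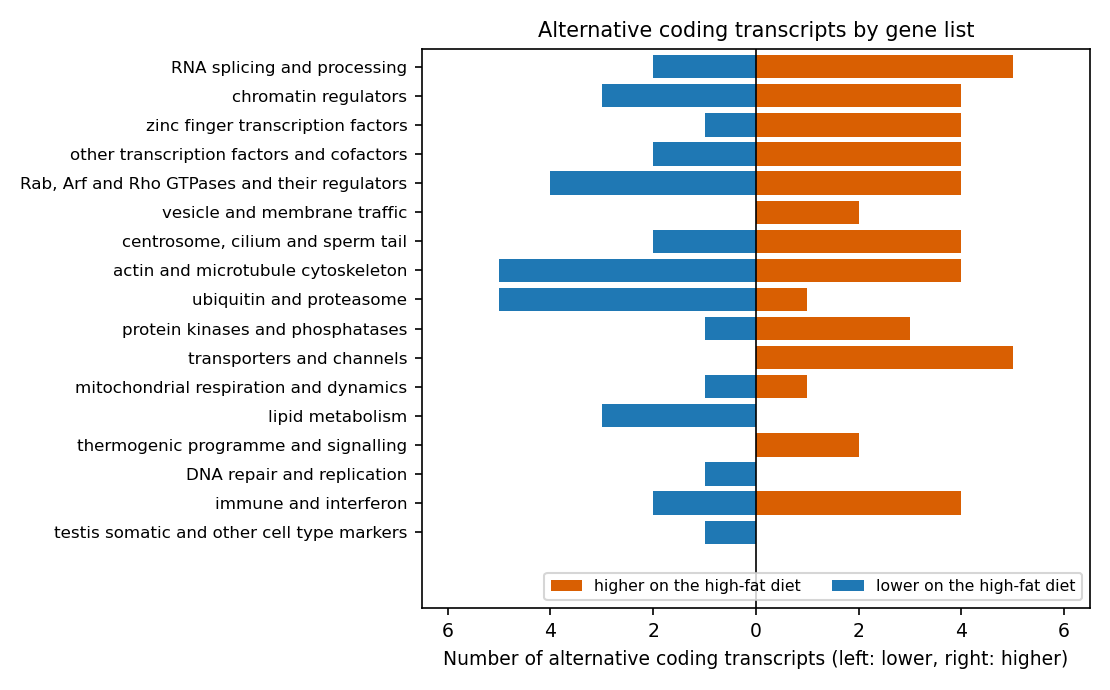
Number of alternative coding transcripts on each gene list that were higher (orange, right) or lower (blue, left) on high-fat food in the authors' deposited table. The ubiquitin list has 5 lower and 1 higher, the transporter list 5 higher, and most other lists have members on both sides; a gene may be on more than 1 list.

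Members shared their locus with another listed transcript in 22 cases, at 17 loci as the authors' assembly defines them, and 156 were the only listed transcript of theirs. At 9 of the 17 loci all listed transcripts moved the same way, and the sum of their counts was called by edgeR at each, 5 higher and 4 lower, beside 94.7% of all loci in the table. At the other 8 the directions were mixed, and the sum was called at 2 and not at 6. A sum covers listed transcripts only, so the other transcripts of the gene are not in it.

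Rabgap1, a GTPase-activating protein for Rab6, showed both its canonical and its alternative transcript. The alternative one had 949, 1208 and 1373 counts on normal and 204, 542 and 311 on high-fat food, and the canonical one had 785, 1004 and 990 and then 1781, 1741 and 2186. The member was lower and the canonical transcript higher in every high-fat library, with log2 fold changes of -1.72 ± 0.43 (adjusted p = 0.00945, edgeR) and 1.06 ± 0.22 (adjusted p = 0.00627, edgeR). The 2 transcripts have the same coding sequence and start 8982 bases apart. Their summed normalized counts were 2042 ± 175 on normal and 2221 ± 55.9 on high-fat food, a difference that edgeR did not call (log2 fold change 0.12 ± 0.19, adjusted p = 0.56).

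Pik3cd encodes a catalytic subunit of the lipid kinase PI3K best known from white blood cells. Its member, at chr4:149649170-149674194 on the minus strand, had 996, 836 and 1284 counts on normal and 40, 44 and 30 on high-fat food, with means of 1013 ± 198 and 38.1 ± 10.2 (SD, n = 3) and a log2 fold change of -4.73 ± 0.43 (adjusted p = 0.00183, edgeR). Of the 2 assembled transcripts at the locus, 1 had 1599, 1761 and 2105 and then 4505, 4723 and 4626 counts, a rise of 1.37 ± 0.18 on the log2 scale, and the other had 1083, 996 and 99 and then 51, 75 and 28. The sum was 3515 ± 358 on normal and 4674 ± 497 on high-fat food (log2 fold change 0.41 ± 0.18, edgeR adjusted p = 0.0622). The member has the coding sequence of the comparison transcript and starts 24514 bases from it.

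Pef1, a calcium-binding protein of the penta-EF-hand family, had 44, 221 and 187 counts on normal and 924, 677 and 1131 on high-fat food. The assembled transcript of the locus had 845, 51 and 733 and then 0 in each high-fat library, so the transcripts moved in opposite directions, and the sum was 684 ± 371 and 896 ± 189 (adjusted p = 0.51, edgeR). Phrf1 had 18, 30 and 20 and then 36, 263 and 392 counts, while its assembled partner had 674, 865 and 949 and then 406, 511 and 461, and the sum was 827 ± 81.4 and 670.3 ± 160 (adjusted p = 0.38, edgeR). At Cnot1, 2 assembled transcripts fell with the member and 1 rose, from 125, 512 and 312 to 5230, 6227 and 982 counts, and the sum was not called (adjusted p = 0.486, edgeR). Elk4, an ETS transcription factor, had 0 counts and then 14, 7 and 28 for the member and 62, 38 and 11 and then 0 for a transcript of the nonsense-mediated decay biotype (sum, edgeR adjusted p = 0.171).

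**Figure D4:**
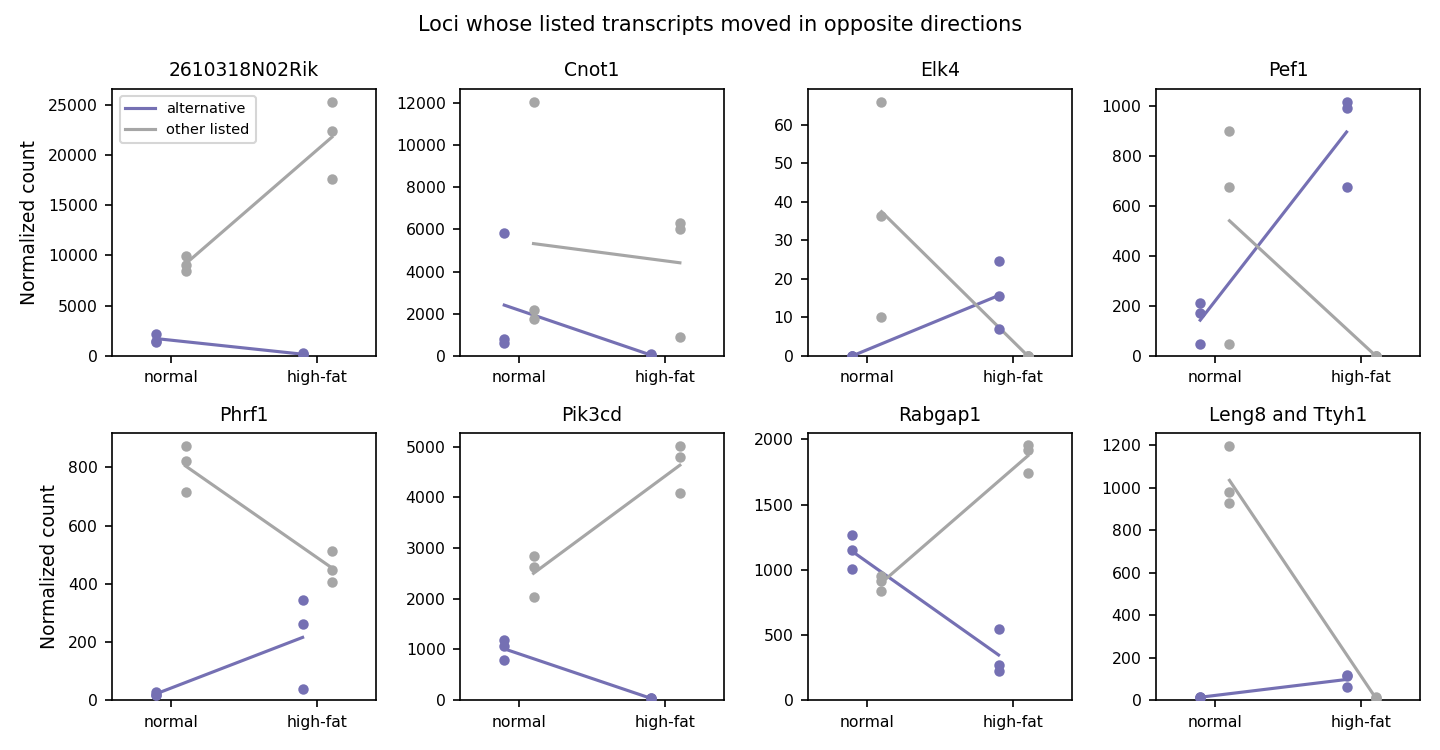
Normalized counts (vertical, linear scale from 0) on normal and high-fat food at the 8 loci where listed transcripts moved in opposite directions, with points for the 3 libraries per diet and lines joining the means. Purple shows the alternative coding transcript (both members summed at 2610318N02Rik) and grey the sum of the other listed transcripts; at Rabgap1 the member is lower and the canonical transcript higher in each high-fat library, and at Cnot1 the grey sum holds transcripts of both directions.

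At 2610318N02Rik and at Ttyh1 the directions were mixed and the sum was called. Both 2610318N02Rik members fell, with 552, 954 and 1252 and then 123, 72 and 319 counts for 1 and 1543, 643 and 291 and then 6, 6 and 16 for the other. The assembled transcript of that locus rose from 8536, 10423 and 9203 to 22975, 22380 and 20045 counts, and the sum rose with it (log2 fold change 1.01 ± 0.16, edgeR adjusted p = 0.00398). Ttyh1, which encodes a membrane protein of the tweety family, had 14, 18 and 10 and then 108, 112 and 70 counts, while 2 listed transcripts that the assembly joins to the same locus, 1 of them of the neighbouring gene Leng8, fell, and so did the sum (log2 fold change -3.29 ± 0.39, edgeR adjusted p = 0.00275).

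Where 2 members or a member and an annotated partner moved together, their sums necessarily moved the same way. Lsm10 encodes a protein of the ring that processes histone messenger RNA, and its 2 members had 3, 0 and 3 counts each on normal food and 45, 88 and 186 and 254, 56 and 166 on high-fat food. Its canonical transcript went from 29, 10 and 18 to 221, 354 and 225 counts, and the sum from 23.0 ± 13.9 to 526 ± 40.6. Dido1, a protein with a PHD finger, had 580, 627 and 608 counts on normal and 62, 108 and 219 on high-fat food for the longer-spanning member, and 56, 53 and 41 and then 6, 16 and 16 for the other. Their coding sequences are 1842 and 1929 bases long, beside 6768 in the comparison transcript. Myo7a, a motor protein of hair cells, had 655, 823 and 887 and then 28, 83 and 115 counts for a member called by edgeR (log2 fold change -3.41 ± 0.55, adjusted p = 0.00372), and 1, 218 and 78 and then 0, 0 and 1 for one that was not tested. The 2 Apbb1 members, of an adaptor that binds the amyloid precursor protein, had 41, 18 and 23 and 16, 9 and 17 counts on normal food and 0 in every high-fat library.

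Aven and Zfp184 each had a listed partner that was higher as well. Aven, an inhibitor of cell death, had 16, 24 and 25 and then 1150, 521 and 90 counts for the member, a log2 fold change of 4.88 ± 1.07 (adjusted p = 0.00697, edgeR) that was 3.83 without library 10 and was not called by limma-voom (4.03, adjusted p = 0.05). Its canonical transcript was at 0 on normal food and had 85, 1163 and 207 counts on high-fat food. Zfp184 had 0, 2 and 2 and then 178, 36 and 20 counts for the member, a log2 fold change of 5.88 ± 1.35 (adjusted p = 0.00765, edgeR), or 4.26 without library 10, and its partner annotated for nonsense-mediated decay had 34, 35 and 14 and then 246, 166 and 118.

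By structure, rises and falls were spread over all kinds of transcript. Of the 48 with the coding sequence of the comparison transcript 26 were higher in the authors' deposited table, of the 81 shorter ones 47, of the 9 longer ones 6 and of the 35 incomplete ones 16. The first exon overlapped that of the comparison transcript in 93 members, of which 54 were higher, and did not in 83, of which 42 were higher. The last exon did not overlap in 35, of which 13 were higher and 22 lower, beside 83 higher and 58 lower of the 141 in which it did. These 35 include models with an open coding end, such as Cop1, Immt, Lyar, Rad21 and Stard6. Their last annotated exon need not be the end of the RNA. Of all 25 members with an open coding end, 8 were higher and 17 lower. Of the 57 tagged principal by APPRIS 34 were higher, and of the 119 others 62. No test was made of these counts. The comparison transcript itself was listed for 4 members, so for the others its level is not in the table.

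**Figure D5:**
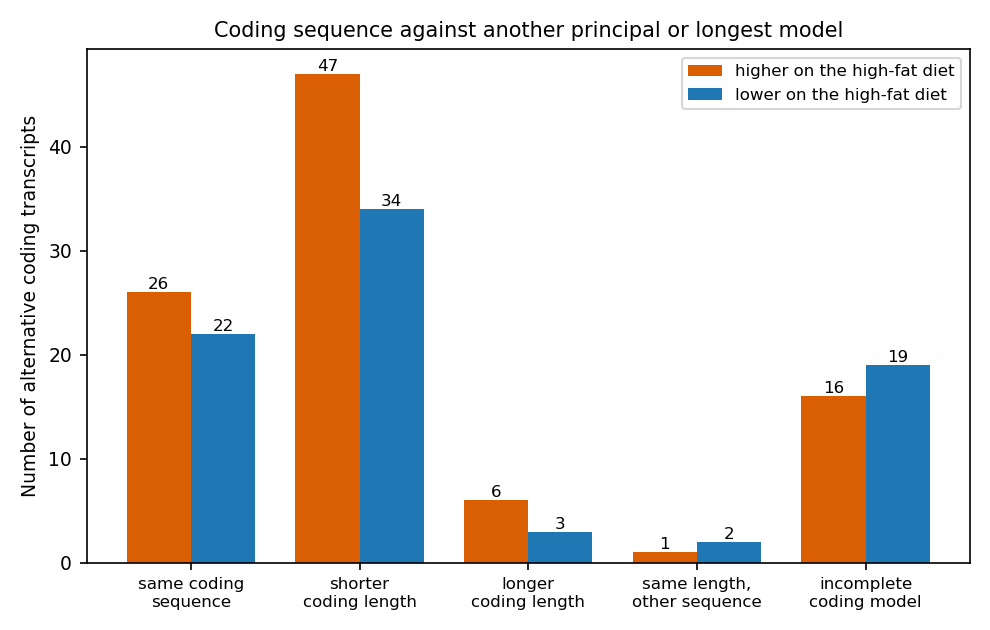
Number of alternative coding transcripts higher (orange) and lower (blue) on high-fat food in the authors' deposited table, by how the coding sequence compares with another coding transcript of the gene in GENCODE M21. Shorter coding sequences are the most frequent class (47 higher, 34 lower), followed by identical ones (26 and 22).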

How the data were processed

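Per the labels' protocols, Trizol-extracted testis RNA was turned into dUTP libraries that keep the strand. The submitters' processing notes name Trimmomatic, HISAT2, StringTie, DESeq and GRCm38 and give no version. The deposited table has 1 line per transcript with estimated counts for each of 6 libraries, whole numbers as deposited and not rounded further. Beside them it holds the same counts scaled and rounded by the authors (treated as a score), the authors' linear fold change (a ratio), their log2 fold change and their p-value, per the file headers; the authors' mean signal column and the other tables, of set enrichment, were not used.

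Size factors came from dividing counts by scaled counts at counts of at least 5000, and ran from 0.908 to 1.14. edgeR 4.0.16 (R 4.3.3) fitted a quasi-likelihood model to the whole table, with these size factors, edgeR's filter on low counts, diet as the only term and Benjamini-Hochberg adjustment over all 680 transcripts tested; a call is an adjusted p under 0.05. The edgeR fit in this main setting was also run on simulated counts, and the other steps were not. TMM scaling assumes that most features do not differ, while the table holds called transcripts only, so it is an alternative and not the main setting. limma 3.58.1 and DESeq2 1.42.0 were further alternatives, as were other filters and leaving out each library. Values are given as mean ± SD over 3 libraries and fold changes as ± SE. The SE of an edgeR fold change was worked back from its test, as the absolute log2 fold change over the square root of the F statistic. A fold against a diet at 0 is a lower bound against 3 counts per library, which covers counting error only. Python 3.11.15 read structures and sequences from GENCODE M21; coordinates of whole transcripts are those of the deposited table.

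Members and gene lists were chosen with earlier results of these data known. Members were named if they were among the 10 highest by mean, the 10 largest rises or falls among called members with a mean of at least 50 and no overlap, had another listed annotated transcript of the gene, were on a gene list (up to 3 by mean, more where a count is spelled out), or came from a gene with more than 1 member; other members named were chosen after their values were seen. Amino acid sequences were not used here. The result of 1 abundant member is not reported here.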

Additional observations from a re-analysis of the deposited data

How the results depend on the processing

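Beside the 137 members called of 137 tested, 131 of 136 were called with TMM, 126 of 133 with DESeq2's size factors and 134 of 137 with library totals. With limma-voom 133 of 137 were called, with DESeq2 all 137, with no filter 175 of 178 and with a mean count of at least 50, 95 of 96. Leaving out each library gave 147 to 159 called of 159 to 167 tested, as more members pass the filter. Between 8 and 15 members tested were then not called, beside 0 with all libraries. Among all listed transcripts 694 to 714 were called of 766 to 772 tested, beside 678 of 680. When the adjustment covered every transcript the authors tested, 0 members and 1 listed transcript passed by edgeR, although all 137 had an unadjusted p under 0.05 and 178 are called in the authors' deposited table, 107 of them at an adjusted p under 0.01. Restricting members to those with identical coordinates in GENCODE left 40 called of 40 tested. Restricting them to those with a junction of their own, chosen after seeing the data, left 74 of 74. Only the set became smaller, and no call was lost. Of the 17 loci, 11 were called without any 1 library as with all, 12 with limma-voom or DESeq2 and 10 of the 15 with a mean count of at least 50. The share of called members that were higher was 51.9% with TMM and 51.6% with DESeq2's size factors, and the median log2 fold change of all listed transcripts moved by -0.49 and -0.52. The values that reversed, with TMM and DESeq2's size factors, were the log2 fold changes of Sh3d21 (-0.12 and -0.15) and of 1810055G02Rik (-0.023 and -0.062); both scalings centre the listed transcripts. Of 982 alternatives for 77 named members, 936 kept direction and call, and 10 members lost the call somewhere. No paired analysis was possible because the diets share no library numbers. The 41 untested members are those with low counts or with counts in too few libraries, and 3 libraries per diet limit the precision of every member.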

Other observations

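Some members outside the lists, chosen after their values were seen, had clear values. Rpap1, a protein of RNA polymerase II assembly, had 0, 78 and 28 counts on normal and 1189, 1839 and 1368 on high-fat food, and every high-fat library was above every normal one (log2 fold change 5.44 ± 1.57, edgeR adjusted p = 0.0148, or 6.79 without library 8), although the call was lost without library 9 (edgeR adjusted p = 0.0688). Tes, a focal adhesion protein, had 45, 217 and 61 and then 1295, 699 and 1280 counts (log2 fold change 3.39 ± 0.74, edgeR adjusted p = 0.00692, or 4.38 without library 8). Sun1, which links the nuclear envelope to the cytoskeleton and holds telomeres in meiosis, had 181, 214 and 271 and then 465, 528 and 726 (log2 fold change 1.38 ± 0.32, edgeR adjusted p = 0.0081, or 0.84 and adjusted p = 0.0541 with DESeq2's size factors). The form lacks 369 coding bases of the comparison transcript, and its diets did not overlap.

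Among RNA-binding and cell death genes, Cwc22, a splicing factor of the exon junction complex, had 0 counts on normal food and 141, 67 and 71 on high-fat food, at least 32.3-fold higher (adjusted p = 0.00372, edgeR). Tia1, which binds RNA in stress granules, had 0 and then 37, 18 and 58, at least 12.5-fold higher (adjusted p = 0.00434, edgeR). Bax, a promoter of cell death at mitochondria, had 0 and then 16, 10 and 28 counts for a form without 63 coding bases, at least 5.93-fold higher (adjusted p = 0.00449, edgeR). Among the falls, Sufu, an inhibitor of hedgehog signalling, had 936, 1204 and 432 and then 109, 134 and 239 counts (log2 fold change -2.45 ± 0.53, edgeR adjusted p = 0.00692). Cic, a transcriptional repressor, had 708, 555 and 435 and then 211, 221 and 227 (log2 fold change -1.36 ± 0.37, edgeR adjusted p = 0.0125). Lyar, a nucleolar protein, was not tested and had 3, 1414 and 1715 counts on normal and 0, 2 and 0 on high-fat food, with library 7 far below libraries 8 and 9.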
